A study of Rattus norvegicus with 6 samples.

Results

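The nuclei described here were GABA neurons of the rat nucleus accumbens that carried RNA of Bnc2, a zinc-finger transcription factor, together with Nxph2, Prlr or Col6a2. They were chosen from raw counts of unique molecular identifiers (UMIs, each the tag of 1 captured RNA molecule). A nucleus had to show 500 or more genes, with no more than 5% of its UMIs from mitochondrial genes. It needed at least 2 UMIs of the GABA synthesis genes Gad1 and Gad2 summed, and at most 1 of the glial genes Mog, Aqp4, Pdgfra and Csf1r summed. It needed at least 2 Bnc2 UMIs and at least 1 of Nxph2, Col6a2 and Prlr summed. It could have no UMI of Drd2, Otof or Drd3 and at most 1 of Chst9, genes that mark other striatal neurons. Of 64260 barcodes, 61609 passed the quality filter, 28812 were GABA neurons by these criteria, and 80 met the whole rule. They are called the Bnc2-selected nuclei. The levels of the genes that the rule reads chose these nuclei and are given as a description, with no test.

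Tissue came from 12 Sprague-Dawley rats, 6 male and 6 female, on postnatal days 90 to 120, as bilateral punches 2 mm deep at about Bregma +2.42. Every rat had self-administered heroin, with 7 days at a fixed ratio of 1 response, 4 days at 3 responses, a progressive ratio test on day 12 and the ratio of 3 again on days 13 and 14. The 3 saline libraries (replicates 1 to 3) came from rats injected with saline after the last session, and the 3 naloxone libraries (replicates 4 to 6) from rats injected with naloxone, an opioid receptor antagonist. Rats were killed 1 h after the injection, and each library pools male and female tissue. No rats without heroin were analysed here, so both groups share the heroin history. The labels do not say which rats entered which library, so p-values measure only the spread between these libraries.

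Most neurons of the striatum are spiny projection neurons, which release GABA and are sorted by their dopamine receptor. Smaller classes lie among them: eccentric spiny neurons, granule-like cells of the islands of Calleja that express Drd3, and interneurons that make acetylcholine, somatostatin or parvalbumin. Ebf1 is a transcription factor of developing direct-pathway spiny neurons. Nxph1 and Nxph2 encode neurexophilins, secreted ligands of the presynaptic neurexins. Prlr encodes the prolactin receptor, which signals through the kinase Jak2 and the factor Stat5. Bnc2 and the collagen VI gene Col6a2 are also expressed by fibroblasts, and Prlr by the choroid plexus, so markers of those cells were read in the same nuclei.

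The Bnc2-selected nuclei were present in all 6 libraries. Saline replicates 1 to 3 held 10, 18 and 11 of them, and naloxone replicates 4 to 6 held 14, 10 and 17. Their median depth was 8552.5 UMIs, and by library it lay between 7103 and 13023, against 6763 to 12107 for the other GABA neurons. The median mitochondrial share was at most 0.275% in each library. A doublet caller marked 3 of the 80 (3.75%), against 3.76% of other GABA neurons. UMIs of both Xist and a Y-linked gene, which come from mixed sexes or free RNA, were found in 8 (10%), against 8.25%. Of these 8 nuclei, 4 were in naloxone replicate 4 and 3 in naloxone replicate 6. Of 463 barcode sequences that occur in more than 1 library, 1 belonged to a Bnc2-selected nucleus.

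Levels are given as CPM, a gene's UMIs scaled to a common total of all UMIs of the class in a library. They are counts from the 3' end and are compared between classes for 1 gene at a time. Bnc2, which the rule requires, was at 834, 1212 and 743 CPM in the saline libraries and 1003, 1364 and 1114 CPM in the naloxone libraries. A nucleus held a median of 9 Bnc2 UMIs, with a range of 2 to 74. Bnc2 was at 1.41 CPM or less in every reference class of neurons, each of which was limited to nuclei with at most 1 Bnc2 UMI.

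Of the partner genes, Nxph2 was detected in 45 of the 80 nuclei, Prlr in 54, both in 21 and Col6a2 in 5. The label's combination of Bnc2, Nxph2 and Prlr therefore held for 21 of the 80. Nxph2 was at 342, 269 and 60.7 CPM in the saline libraries and 239, 355 and 217 CPM in the naloxone libraries, so saline replicate 3 was lowest. Prlr was at 201, 203 and 129 CPM in the saline libraries and 133, 177 and 86.2 CPM in the naloxone libraries. Col6a2 reached 75.8 CPM in saline replicate 3, was between 7.26 and 13.3 CPM in 3 other libraries and was at 0 in naloxone replicates 5 and 6. In oligodendrocytes, which should lack these genes and so measure free RNA, Nxph2 was found in 0.440% of nuclei and Prlr in 0.603%. Thinned to 1000 UMIs per nucleus, 20% of Bnc2-selected nuclei kept an Nxph2 UMI and 11.2% a Prlr UMI. The rule requires a partner UMI, so higher rates than in oligodendrocytes were set in advance. They do not measure how many partner UMIs were free RNA, and 22 of the 80 nuclei held exactly 1.

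Ebf1 and Scube1 are named as markers of these nuclei but are not read by the rule. Ebf1 was at 1467, 1408 and 1009 CPM in the saline libraries and 1980, 3260 and 2542 CPM in the naloxone libraries. Its mean was 1944 ± 834 CPM (SD, n = 6 libraries), against 113 ± 86.9 CPM in Drd1 spiny neurons, the highest of the reference classes. It was detected in 70 of the 80 nuclei, with a median of 15 UMIs, and in 0.766% of oligodendrocytes. Scube1, which encodes a secreted or surface protein, did not follow the label. It was detected in 4 of the 80 nuclei (5%), its mean was 6.79 ± 6.34 CPM, and somatostatin interneurons had 70.4 ± 109 CPM.

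Within the 80 nuclei, Ebf1 and Bnc2 counts had a Spearman's rho of 0.760 across nuclei. For Nxph2 and Bnc2 rho was 0.415, and for Nxph2 and Prlr it was -0.211. The nuclei share libraries and depth, rho between Bnc2 and total UMIs was 0.319, and the rule itself needs Nxph2, Col6a2 or Prlr, so these values describe the set only. In the 21 nuclei with both Nxph2 and Prlr, Ebf1 was at 2912 CPM, and it was detected in all 21. In the 5 nuclei with Col6a2, Ebf1 was at 482 CPM.

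The rule cut through a larger group of nuclei. Of the 324 GABA neurons with at least 2 Bnc2 UMIs, the 80 made up 24.7%. Of the other 244, 70 failed only by an Otof UMI, 47 only by having no UMI of Nxph2, Col6a2 and Prlr, 9 only by Drd3, 6 only by Drd2 and 1 only by Chst9, and 111 failed several criteria. At the lower edge, the 4 Bnc2-selected nuclei with exactly 2 Bnc2 UMIs had 60.4 CPM of Ebf1, and the 14 nuclei with 1 Bnc2 UMI that otherwise met the rule had 477 CPM. At the edge of the partner criterion, the 22 nuclei with exactly 1 partner UMI had 1368 CPM of Ebf1, and the 47 with none had 1631 CPM.

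All GABA neurons were clustered without the genes of the rule and of the reference gates. Of 32 clusters, a single cluster of 424 nuclei, with 48 to 86 nuclei in each library, held 72 of the 80. It also held 144 of the 244 nuclei that carried at least 2 Bnc2 UMIs but fell outside the rule, among them 61 of the 70 that failed only by Otof. Pooled over libraries, these 144 nuclei had 965 CPM of Bnc2, 1783 CPM of Ebf1 and 250 CPM of Angpt1, against 1042, 1964 and 313 CPM in the 80. Their Nxph2, which the rule favours, was at 94.4 against 231 CPM. Genes that the rule does not read also differed in level, with Nxph1 at 736 against 1476 CPM and Plch1 at 144 against 215 CPM, given without a test. The same cluster held 191 nuclei with no Bnc2 UMI, which had 300 CPM of Ebf1, 26.5 CPM of Angpt1 and 90.9 CPM of Nxph1. Of the partner genes, Prlr and Col6a2 were higher in these 191 than in the 80, although the rule favours them. Prlr was at 224 against 141 CPM and Col6a2 at 41.5 against 16.3 CPM, while Nxph2 was lower, at 10.5 against 231 CPM. The cluster was given no cell type name. At a coarser resolution with 23 clusters, 74 of the 80 lay in a cluster of 1739 nuclei.

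**Figure D1:**
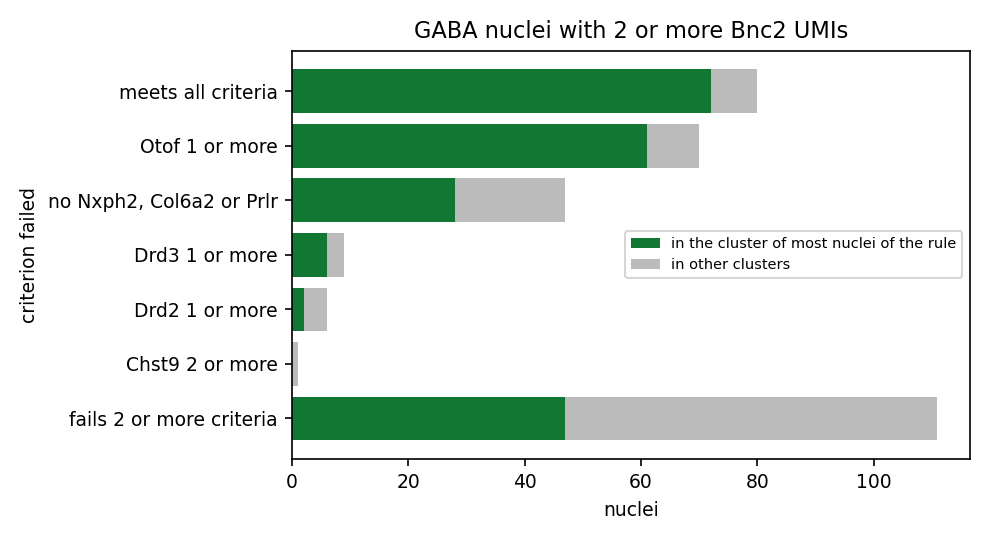
GABA neurons with at least 2 Bnc2 UMIs by the criterion of the rule that they failed (vertical axis) and their number (horizontal axis). Green marks nuclei in the cluster that holds most Bnc2-selected nuclei, 72 of the 80 that met all criteria and 61 of the 70 that failed only by Otof, and grey marks nuclei in other clusters.

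The other 8 Bnc2-selected nuclei lay in 5 clusters. They came from saline replicate 3 (3 nuclei), naloxone replicate 4 (3) and naloxone replicate 6 (2). They had 313 CPM of Bnc2 against 1155 CPM in the 72, and 235 CPM of Ebf1 against 2230 CPM. The spiny neuron gene Rarb, a retinoic acid receptor, was at 835 CPM against 56.4 CPM, and Sox6, a factor of interneurons born in the medial ganglionic eminence, at 557 CPM against 25.5 CPM. These 8 nuclei had a median of 12986.5 UMIs and the 72 had 8498.5. The comparisons with reference classes below were also run on the 72 alone.

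Defining markers of fibroblasts and choroid plexus were at 0. The fibroblast list summed to 49.5 ± 21.1 CPM (22.7 to 75.0 over libraries) with 6 of 8 genes at 0, Dcn, Lum, Col1a1, Col1a2 and Col3a1 among them. The Otof neurons summed to 33.0 to 60.3 CPM on the same list. The choroid plexus list summed to 5.54 ± 8.69 CPM (0 to 18.7) with 4 of 5 genes at 0, Ttr and Otx2 among them, against 5.65 to 12.4 CPM in the Otof neurons. The oligodendrocyte list, read through Mbp and others, summed to 239 ± 99.0 CPM (101 to 382), against 127 to 219 CPM in the Otof neurons. Of the glutamatergic list, 4 of 7 genes were at 0, and Slc17a6, a vesicular glutamate transporter, was found in 2 nuclei. Slc32a1, the vesicular GABA transporter, was not read by the rule and was at 39.2 ± 27.6 CPM, and its range of 10 to 91.0 CPM took in its level of 25.4 ± 8.29 CPM in oligodendrocytes.

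Markers of neighbouring regions gave no single match. Nkx2-1, Lhx6 and Lhx8, which mark pallidal neurons and interneurons born in the medial ganglionic eminence, had no UMI in the 80 nuclei. Neither did the amygdala genes Prkcd and Crh, the septal gene Crhr2, Pthlh, Pvalb and Cck. The septal factors Zic1 and Zic4 were found in 13 and 11 nuclei, at 16.5 ± 14.6 and 15 ± 10.5 CPM, within the spread of the 21.2 and 18.0 CPM in cholinergic neurons. Adarb2, Meis2 and Pbx3, transcripts shared by several forebrain GABA classes, were found in 80, 80 and 79 nuclei. For genes with no UMI in the 80 nuclei, a floor of 3 UMIs was set, which is 3.49 CPM of their 859678 pooled UMIs. The floor is a convention and not a measured maximum.

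**Figure D2:**
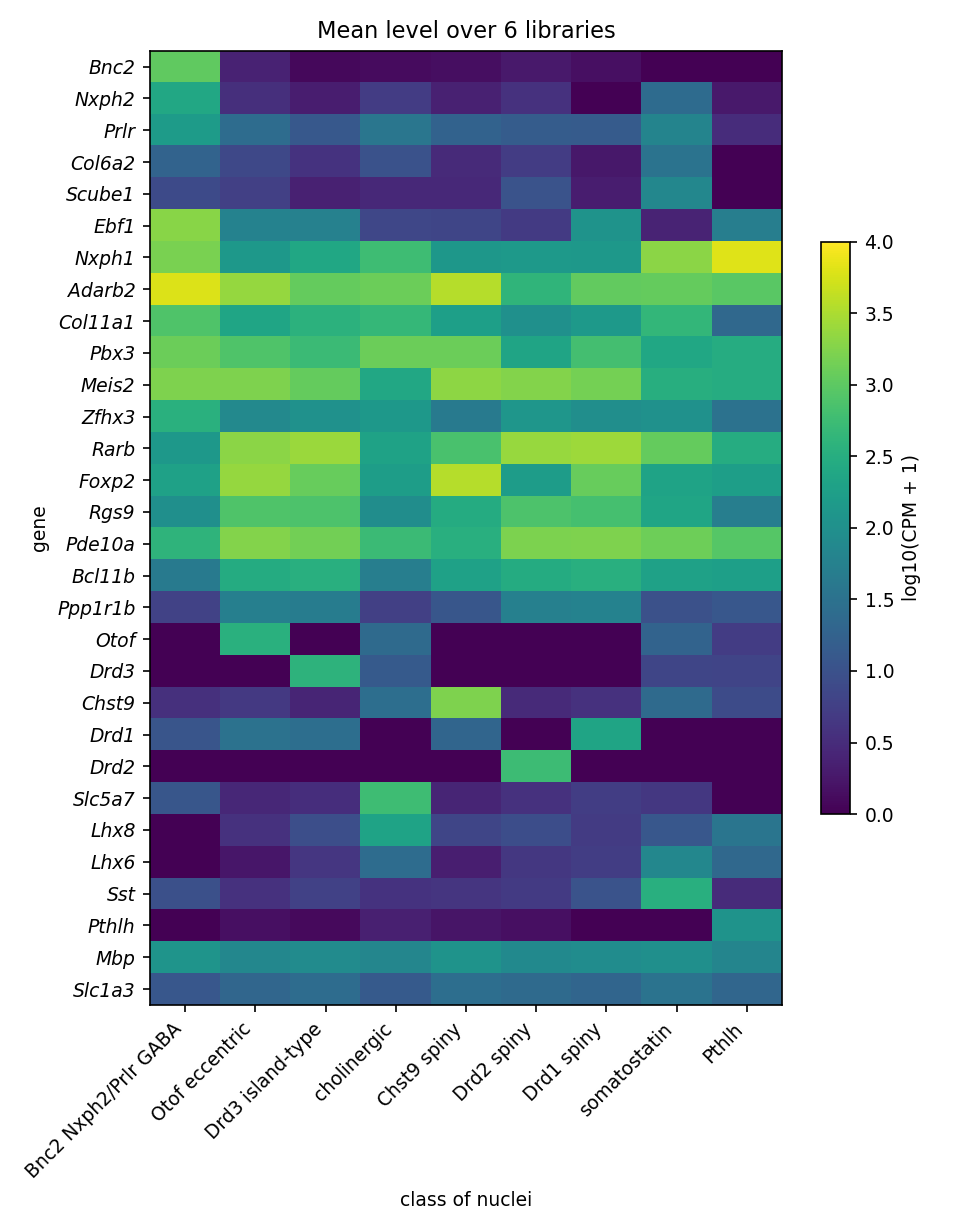
Mean level of marker genes (rows) in the Bnc2-selected nuclei (first column) and in 8 reference classes of neurons, as log10(CPM + 1) averaged over 6 libraries. Bnc2 and Ebf1 are high in the first column, while Rarb, Foxp2 and Rgs9 are high in Otof and Drd3 neurons and low in the Bnc2-selected nuclei and the cholinergic neurons.

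The 8 reference classes, each set by a few marker UMIs, were ranked by likeness over 10436 genes. The measure was Pearson's r of log2(CPM + 1), across genes within a library, averaged over the 6 libraries. Otof neurons (1950 nuclei, eccentric spiny type) had a mean r of 0.783 ± 0.0490, Drd3 neurons (1554, island type) 0.779 ± 0.0458 and cholinergic neurons (345, gated on Slc5a7 with no need of Gad1 or Gad2) 0.777 ± 0.0481. Chst9 spiny neurons (1157) had 0.776, Drd2 spiny neurons (3030) 0.775, Drd1 spiny neurons (166) 0.717, somatostatin interneurons (83) 0.685 and Pthlh neurons (60) 0.638. Within libraries, r was higher for Otof than for Drd3, cholinergic and Chst9 neurons in 4 of 6 libraries each, with mean differences of 0.00373 ± 0.00660, 0.00521 ± 0.00985 and 0.00659 ± 0.0118 (SD), and higher than for Drd2 neurons in 6 of 6 by 0.00776 ± 0.00525. The cholinergic neurons came first with Spearman's rho, at 0.821 against 0.820 for Otof neurons, and over the 3551 genes of at least 50 CPM, at 0.778 against 0.759. The 3 classes with the lowest r were also those with the fewest nuclei, whose part in the order was not tested. The order of the first 3 changed with the measure, and these 3 were used for the tests.

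Against the Otof neurons, 1709 of 8902 genes tested (19.2%) passed an adjusted p of 0.05 in edgeR's quasi-likelihood test with library as a block, 747 of them higher in the Bnc2-selected nuclei (8.39%) and 962 lower (10.8%). Against the Drd3 neurons it was 1719 of 8365 (20.5%), 784 higher (9.37%) and 935 lower (11.2%). Against the cholinergic neurons it was 809 of 5487 (14.7%), 424 higher (7.73%) and 385 lower (7.02%). Genes read by a gate were never called. All 3 comparisons share the same 80 nuclei, and the genes tested lie in nuclei that the rule selected.

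The program of spiny projection neurons was low. Against the Otof neurons, 11 of 11 spiny neuron genes tested were lower, with a median log2 difference of -2.23 against -0.01 over all genes. Against the Drd3 neurons, 10 of 11 were lower (median -1.99 against 0.00 over all genes). Against the cholinergic neurons, 0 of 9 were lower and Adcy5 and Arpp21 were higher. Summed, the list was at 1782 ± 379 CPM in the Bnc2-selected nuclei, 7574 ± 1025 CPM in the Otof neurons and 1683 ± 276 CPM in the cholinergic neurons. Of all genes tested, 10.8% were lower against the Otof neurons and 11.2% against the Drd3 neurons. The rule itself leaves out nuclei with Drd2, Otof, Drd3 or more than 1 Chst9 UMI. Pooled Rarb was at 161 CPM in the 80 nuclei and 900 CPM in the other 244 with at least 2 Bnc2 UMIs. In the 144 of those 244 that lay in the same cluster, it was at 77.5 CPM. The part of the rule in the low spiny program was not tested.

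Rgs9, a regulator of dopamine receptor signalling in spiny neurons, was at 80.4, 109 and 98.6 CPM in the saline libraries and 79.7, 136 and 75.0 CPM in the naloxone libraries. In the Otof neurons it was between 578 and 937 CPM, with no overlap. Its log2 difference was -3.16 ± 0.16 (SE) with an adjusted p of 6.87e-16, and against the cholinergic neurons it was 0.07 ± 0.19 with an adjusted p of 0.922. Rarb was at 90.4, 131 and 30.3 CPM in the saline libraries and 326, 27.3 and 210 CPM in the naloxone libraries, all below the 1627 to 2182 CPM of the Otof neurons. The 2 libraries with the most Rarb, naloxone replicates 4 and 6, held 5 of the 8 nuclei outside the main cluster. The factors Foxp2, Bcl11b and Foxp1 and the phosphodiesterase Pde10a were also lower than in the Otof neurons, by -3.73 for Foxp2 and -2.80 for Bcl11b on the log2 scale.

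Eccentric spiny markers split. Adarb2, an RNA-binding protein related to the editing enzymes, was higher than in the Otof neurons at 6089 ± 752 against 2327 ± 162 CPM, with a log2 difference of 1.24 ± 0.11 and an adjusted p of 2.25e-10. Adarb2 is not limited to neurons, and oligodendrocytes had 3026 ± 192 CPM of it. Col11a1, a fibrillar collagen, was at 793 ± 86.9 against 228 ± 29.6 CPM, with a log2 difference of 1.67 ± 0.13. Casz1, a zinc-finger factor that marks eccentric neurons, was at 1.21 against 46.7 CPM and was lower, with an adjusted p of 1.1e-07. Mdfic had no UMI in the 80 nuclei and was at least 14.3-fold lower than in the Otof neurons, with 3 UMIs over the group as the floor. Prkd1, a protein kinase, was at 10.7 ± 8.85 against 547 ± 68.8 CPM. Adarb2 and Col11a1 were also higher than in the Drd3 and the cholinergic neurons.

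In all, 115 genes were higher than in each of the 3 classes. Among genes not read by the rule, those with the largest smallest rise over the 3 comparisons, after Ebf1, were Angpt1, Plch1, Ptprk, Tmem132c, Lama4, Bmper, Lrmda, Vwc2, Glra3, Lpp, Cacna1g, Sema6a, Aifm3 and Cfap299. Angpt1, which encodes the Tie2 ligand angiopoietin 1, was at 301, 305 and 387 CPM in the saline libraries and 339, 273 and 281 CPM in the naloxone libraries. The Otof neurons lay between 28.6 and 39.6 CPM and the cholinergic neurons between 0 and 10.9 CPM, so no library overlapped. By its gate, the Otof class left out nuclei with at least 2 Bnc2 UMIs. In the 70 such nuclei that failed the rule only by Otof, pooled Angpt1 was at 255 CPM, Plch1 at 176 CPM and Nxph1 at 888 CPM. Tmem132c was at 106 CPM there and Lrmda at 226 CPM, against 79.1 and 169 CPM in the 80. These genes therefore do not set the Bnc2-selected nuclei apart from all nuclei with Otof. In the 191 nuclei of the main cluster with no Bnc2 UMI, Tmem132c was at 167 CPM and Lrmda at 135 CPM. In the 144 nuclei of that cluster with at least 2 Bnc2 UMIs but outside the rule, they were at 117 and 306 CPM. The log2 differences of Angpt1 were 3.14 ± 0.15, 2.92 ± 0.16 and 5.72 ± 0.26 against the Otof, Drd3 and cholinergic neurons, with adjusted p of 4.17e-16, 3.59e-15 and 8.16e-12. Bmper, which binds bone morphogenetic proteins, was at 77.2 ± 15 CPM against 15.4, 12.6 and 7.1 CPM, and Lama4, a laminin chain, at 53.0 ± 14.3 CPM against 7.93, 5.39 and 9.78 CPM.

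Plch1, a phospholipase C, was at 231, 290 and 212 CPM in the saline libraries and 219, 177 and 180 CPM in the naloxone libraries, against 8.77 to 23.4 CPM in the Otof neurons. Its log2 differences from the Otof, Drd3 and cholinergic neurons were 3.83 ± 0.21, 2.91 ± 0.18 and 3.40 ± 0.21. The receptor phosphatase Ptprk was at 191, 116 and 121 CPM in the saline libraries and 166, 191 and 289 CPM in the naloxone libraries, all above the 15.1 to 27.8 CPM of the Otof neurons. Glra3, a glycine receptor subunit, was at 368 ± 121 CPM against 80.6, 61.8 and 51.7 CPM, and Cacna1g, a T-type calcium channel, at 143 ± 39.4 CPM against 32.5, 11.9 and 34.3 CPM. All 4 genes were higher in 6 of 6 libraries in each comparison. The serotonin receptor gene Htr2c was at 1440 ± 135 CPM against 281, 613 and 182 CPM in the Otof, Drd3 and cholinergic neurons, and the cannabinoid receptor gene Cnr1 at 129 ± 39.6 CPM against 34.7, 17.4 and 59.9 CPM. Both were higher in all 3 comparisons.

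**Figure D3:**
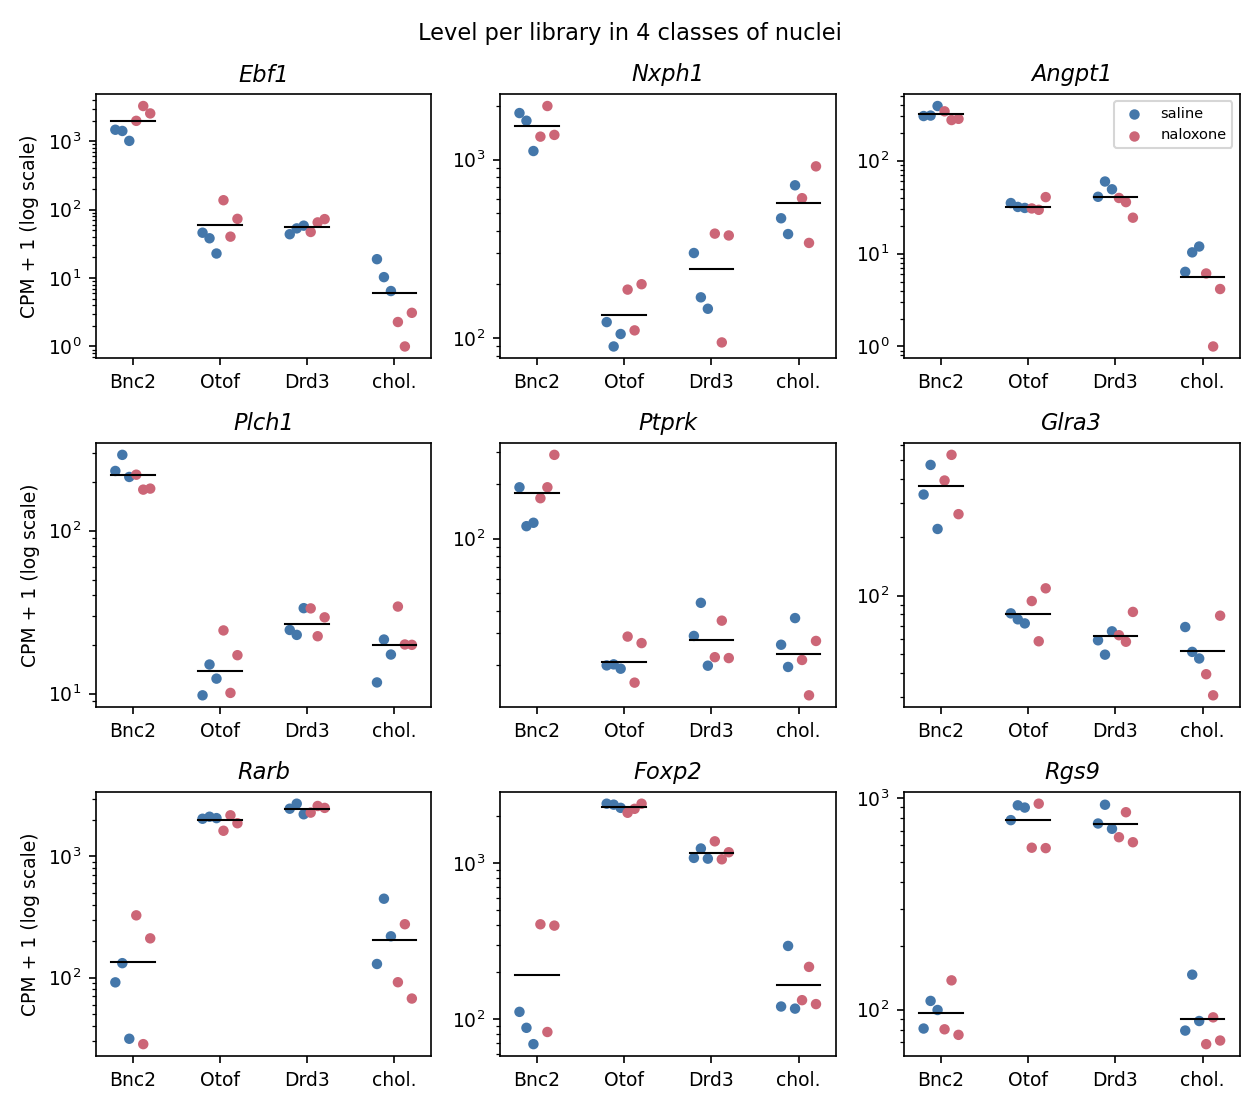
Level of 9 genes as CPM + 1 on a log axis in the Bnc2-selected nuclei and the Otof, Drd3 and cholinergic neurons. Each point is 1 library (blue saline, red naloxone) and the line is the mean of 6, and for Angpt1, Plch1, Ptprk and Glra3 every library of the Bnc2-selected nuclei lies above every library of the other classes.

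Transcription factors of the forebrain moved in both directions. Of 25 tested against the Otof neurons, 9 were higher and 7 lower, beside 8.39% and 10.8% of all genes. Against the Drd3 neurons 9 of 23 were higher and 9 lower (9.37% and 11.2% of all genes), and against the cholinergic neurons 5 of 19 were higher and 4 lower (7.73% and 7.02%). Ebf1, one of the higher ones, marked these nuclei from the start, and Sox6, another in the Otof comparison, was found in 5 nuclei only. Zfhx3, a homeobox factor, was at 350 ± 113 CPM against 76.1, 105 and 135 CPM in the Otof, Drd3 and cholinergic neurons, with log2 differences of 2.08 ± 0.16, 1.65 ± 0.14 and 1.38 ± 0.16. Meis2 differed from the Otof neurons by -0.17 ± 0.11 (adjusted p of 0.356) and was higher than in the cholinergic neurons by 2.84 ± 0.21. Isl1, a factor of direct-pathway and cholinergic neurons, was at 50.7 ± 12.2 CPM, lower than the 93.7 CPM of Drd3 neurons and the 151 CPM of cholinergic neurons. Lhx8, a cholinergic factor, had no UMI and was at least 60.1-fold lower than in the cholinergic neurons, with the same floor of 3 UMIs.

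Of the ligands that gave the nuclei their label, the related Nxph1 could be tested. It was at 1819, 1648 and 1115 CPM in the saline libraries and 1342, 1992 and 1372 CPM in the naloxone libraries, against 88.9 to 200 CPM in the Otof neurons. The log2 differences of Nxph1 were 3.40 ± 0.16 against the Otof, 2.68 ± 0.20 against the Drd3 and 1.46 ± 0.21 against the cholinergic neurons, with adjusted p of 3.87e-16, 1.84e-12 and 3.57e-05. Somatostatin interneurons, at 2050 ± 627 CPM, overlapped with these nuclei, and every library of Pthlh neurons, at 6268 ± 1324 CPM, was higher.

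Partners of the prolactin receptor showed no common direction. Of 4 genes of prolactin signalling tested against the Otof neurons, 0 were higher and Jak2, the receptor's kinase, was lower at 88.2 ± 34.0 against 132 ± 8.97 CPM (log2 difference of -0.73 ± 0.19, adjusted p of 0.00427), where 8.39% of all genes were higher and 10.8% lower. Against the Drd3 neurons, Stat5b was higher and Jak2 lower of 3 tested. Prl, which encodes prolactin, had no UMI. Among steroid receptors, Pgr, the progesterone receptor gene, was at 55.2 ± 37.7 against 18.5 ± 2.92 CPM in the Otof neurons and was higher in 5 of 6 libraries (log2 difference of 1.36 ± 0.31, adjusted p of 0.00117). Nr3c2, the mineralocorticoid receptor gene, was at 481 ± 88.6 against 335 ± 32.6 CPM and was also higher (log2 difference of 0.37 ± 0.13, adjusted p of 0.0349).

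Naloxone acts on opioid receptors, and the mu receptor gene Oprm1 was at 50.2, 87.1 and 68.2 CPM in the saline libraries and 33.2, 54.6 and 56.2 CPM in the naloxone libraries. Its mean of 58.3 ± 18.1 CPM did not differ from the Otof neurons beyond the test (48.8 ± 8.05 CPM, log2 difference of 0.13 ± 0.24, adjusted p of 0.791). Oprm1 was lower than in the cholinergic neurons, at 171 ± 32.0 CPM, by -1.53 ± 0.20 with an adjusted p of 1.1e-05. Chst9 spiny neurons had more, at 289 ± 23.5 CPM. Oprk1, the kappa receptor gene, was at 8.14 ± 7.98 CPM, lower than the 29.0 and 32.8 CPM of the Otof and Drd3 neurons. Pdyn, which encodes the kappa ligand dynorphin, was at 2.92 CPM and lower than in both.

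The share of Bnc2-selected nuclei among GABA neurons asks whether the groups held different numbers of them. It was 0.247% (exact 95% binomial interval 0.118 to 0.453), 0.270% (0.160 to 0.427) and 0.261% (0.131 to 0.467) in the saline libraries. It was 0.307% (0.168 to 0.515), 0.188% (0.0901 to 0.345) and 0.424% (0.247 to 0.678) in the naloxone libraries, which lay on both sides of the saline range. The means were 0.259 ± 0.0120% and 0.306 ± 0.118% (SD, n = 3 each), a difference of 0.0469 percentage points with an exact two-sided permutation p of 0.7, where 0.1 is the smallest possible. Without naloxone replicate 6 the difference was -0.0118. The intervals cover counting error only.

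**Figure D4:**
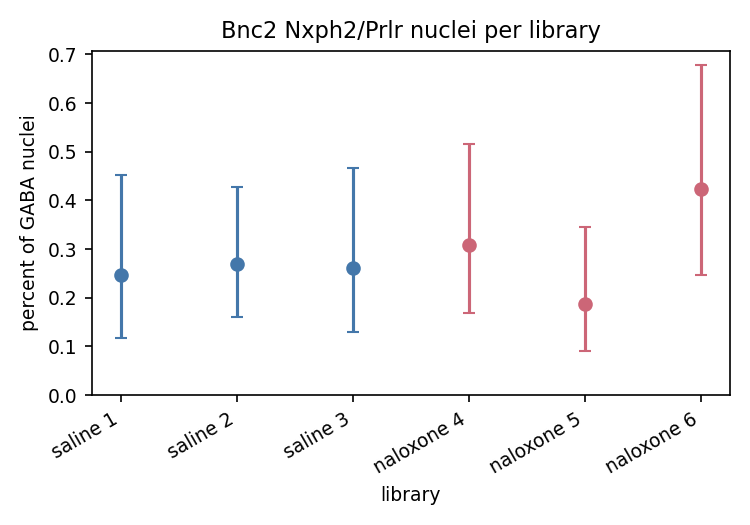
Bnc2-selected nuclei as a percentage of GABA neurons in each library (points; blue saline, red naloxone), with exact 95% binomial intervals as bars. The 3 saline libraries lie between 0.247% and 0.270%, and the naloxone libraries between 0.188% and 0.424%.

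No gene passed the test between naloxone and saline in the 80 nuclei. Of 2681 genes that passed the filter on low counts, 0 (0%) had an adjusted p under 0.05 in edgeR, 156 had an unadjusted p under 0.05, and DESeq2 called 0 with 50 unadjusted. Without the filter on low counts 14 of 14232 genes were called, and leaving out saline replicate 1, naloxone replicate 4, 5 or 6 gave 3, 7, 1 and 3 calls. The libraries of the groups did not overlap for 281 genes (10.5%), 162 of them lower with naloxone (6.04%) and 119 higher (4.44%).

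No chaperone gene, of those that assist protein folding, passed the test. Of 15 listed, 7 were tested, all 7 log2 changes were below 0 (median -0.90 against -0.01 for all genes) and 0 were called. Of all genes tested, 50.6% had a change below 0. Hsph1, a co-chaperone of Hsp70, was at 131, 79.9 and 159 CPM in the saline libraries and 66.4, 13.6 and 60.0 CPM in the naloxone libraries, with no overlap and a log2 change of -1.14 ± 0.42 (adjusted p of 0.676). Chordc1, which binds Hsp90, was at 111, 116 and 129 CPM against 59.8, 68.2 and 75.0 CPM, also with no overlap (adjusted p of 0.832). Among the 324 GABA neurons with at least 2 Bnc2 UMIs, 11 chaperone genes were tested, all 11 changes were below 0 (median -0.55), 6 had groups that did not overlap, and 0 were called. Of all 7036 genes tested there, 49.9% had a change below 0, and 6.05% were lower with naloxone with no overlap. There Hsph1 was at 116 ± 20.6 CPM with saline and 60.3 ± 23.4 CPM with naloxone (log2 change of -0.96 ± 0.22, adjusted p of 0.182). The set of 324 includes the 80 and was chosen after the data were seen.

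Homer1, a synaptic scaffold gene induced by activity, was the 1 immediate early gene tested. It was at 80.4, 109 and 91.0 CPM in the saline libraries and 153, 232 and 142 CPM in the naloxone libraries, which did not overlap, with a log2 change of 0.82 ± 0.33 and an adjusted p of 0.741. Of all 2681 genes tested, 4.44% were higher with naloxone with no overlap. Over the 324 nuclei Homer1 was at 155 CPM with saline and 187 CPM with naloxone, again with no overlap (0.27 ± 0.15, adjusted p of 0.809). Ebf1 was 1295 ± 250 CPM with saline and 2594 ± 642 CPM with naloxone, with no overlap (adjusted p of 0.0506). Pooled over the 72 nuclei in the main cluster it was at 1467 and 2806 CPM, and 0 of 2245 genes passed the test there. Over the 324 nuclei Ebf1 was at 1131 and 1445 CPM, and the groups overlapped (adjusted p of 0.653). Foxp2 was at 88.6 and 295 CPM (log2 change of 1.91 ± 0.38, adjusted p of 0.0506), but 600 and 613 CPM over the 324 nuclei (0.05 ± 0.12, adjusted p of 0.975). In naloxone replicates 4 and 6, single nuclei held 30 of 61 and 33 of 106 Foxp2 UMIs. Opioid receptor and glucocorticoid target genes did not pass the filter in the 80 nuclei. Over the 324 nuclei Oprm1 was at 68.4 ± 9.70 CPM with saline and 61.0 ± 18.9 CPM with naloxone (adjusted p of 0.963).

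**Figure D5:**
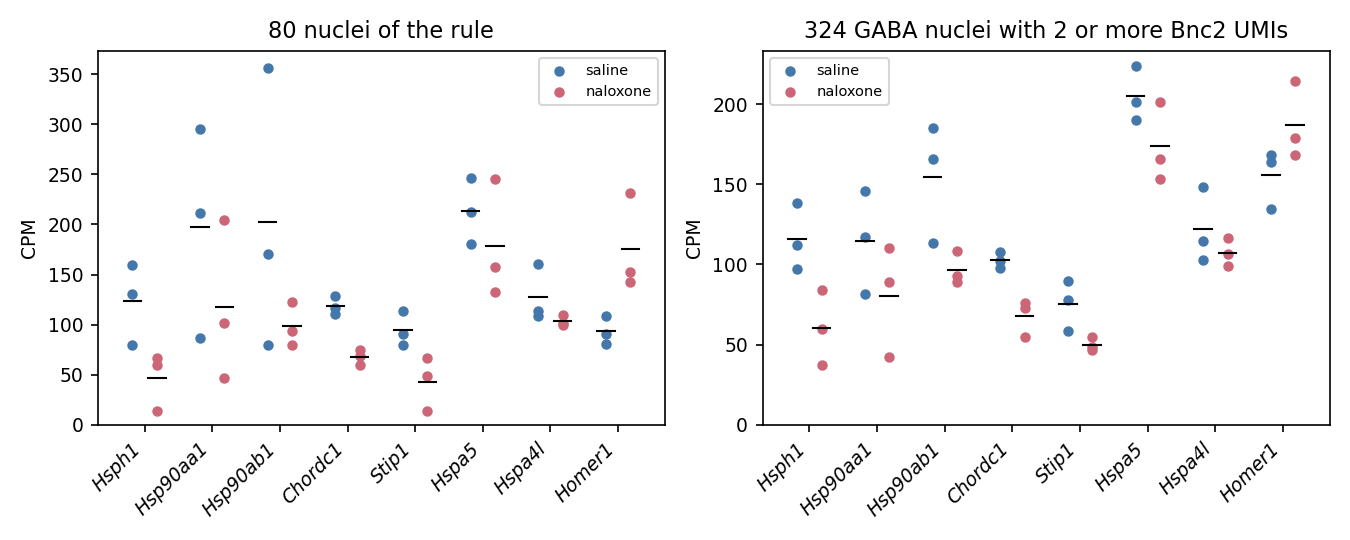
Level in CPM of 7 chaperone genes and Homer1 in each library (points; blue saline, red naloxone; lines are means of 3), in the 80 Bnc2-selected nuclei (left) and in the 324 GABA neurons with at least 2 Bnc2 UMIs (right). Hsph1, Chordc1 and Stip1 do not overlap between the groups in either set, and no gene shown passed the test.

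Whether the response to naloxone differed from that of the Otof neurons was tested as a class by treatment term. It passed for 21 of 9977 genes (0.21%), 9 higher (0.0902%) and 12 lower (0.12%), in the edgeR fit with library as a block, and for 0 genes in DESeq2 and 0 without the block, with 568 and 250 unadjusted p under 0.05 in edgeR and DESeq2. Pde10a, a phosphodiesterase of spiny neurons, was at 211, 298 and 227 CPM in the saline libraries and 326, 846 and 476 CPM in the naloxone libraries of the Bnc2-selected nuclei, while the Otof neurons had means of 1888 and 1710 CPM. Il1rapl2, a synaptic adhesion gene, fell from 555 to 92.2 CPM against 94.9 and 146 CPM. Of its saline UMIs, 63 of 93 in replicate 1 and 72 of 77 in replicate 3 came from single nuclei. Over the 21 genes the median coefficient of variation between libraries was 85.0% in the Bnc2-selected nuclei and 18.5% in the Otof neurons, and over all genes 50.3% and 13.5%. Of the forebrain factors, Rarb and Foxp2 were among the higher genes and Sox6 among the lower, although their differences between the classes overlapped between saline and naloxone libraries. All 3 were higher in the 8 nuclei outside the main cluster, Foxp2 at 835 against 146 CPM, and their part in these calls was not tested gene by gene. In the main cluster alone 6 genes passed.

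By Xist and Y-linked UMIs, 32 of the 80 nuclei were female, 36 male, 8 carried both and 4 neither. The female share was 46.9 ± 5.37% of sexed nuclei (SD, n = 6 libraries) against 52.2 ± 3.98% in the other GABA neurons. The difference of -5.26 percentage points had an exact two-sided sign-flip permutation p of 0.219, where 0.0312 is the smallest possible, and the share was higher in 2 of 6 libraries. Between female and male nuclei, 0 of 849 genes (0%) passed edgeR's test, with 32 unadjusted p under 0.05, and DESeq2 called 0 with 15 unadjusted. Pooled over libraries, Prlr was at 109 CPM in female and 182 CPM in male nuclei, and Nxph2 at 312 and 187 CPM, given without a test since the rule reads both.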

How the data were processed

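The deposited values are UMI counts per gene and barcode, not normalized. Cell Ranger 9.0.1 produced them, per the file headers, and per the submitters' processing notes the genome build was mRatBN7.2. The files hold 25629 genes, and 8 listed genes, Chat and Tac1 among them, were not analysed here. Against 44592 nuclei named in the labels, 64260 barcodes were read here, and nuclei were filtered anew.

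Counts were summed per library and class and tested with edgeR 4.0.16 (R 4.3.3; quasi-likelihood test, TMM factors, default filter, Benjamini-Hochberg adjustment over all genes, threshold 0.05). Class comparisons have library as a block. Libraries held 55739350 to 76272798 UMIs, and the Bnc2-selected nuclei 73305 to 266725 per library. GABA neurons were clustered with scanpy 1.11.5 (3000 variable genes, 40 components, 15 neighbours, Leiden resolution 1.0). CPM are computed here. The fits were tested on simulated counts. Members, markers and gene lists were chosen with earlier results of these data known. Named in class comparisons are genes of these lists, the 10 largest rises and falls and the 15 genes with the largest smallest rise, and in other comparisons up to 5 of the largest rises and falls that passed, with a mean of at least 10 CPM and groups that did not overlap. Alternatives were DESeq2 1.42.0, RLE factors, no filter, each library left out, 1000 genes per nucleus, doublets removed, 3 Bnc2 UMIs and no block. All libraries pool rats, and the labels name no batch, date or pairing. Some genes of the lists are not reported here.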

Additional observations from a re-analysis of the deposited data

Results flagged for a closer look

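The response to naloxone differed between the Bnc2-selected nuclei and the Otof neurons for 21 genes by the class by treatment term of edgeR with library as a block. Of the 9 named genes, 0 kept the call in DESeq2, without the block, or over all nuclei with at least 2 Bnc2 UMIs, and the cause was not tested. Of the named genes, 4 rose relative to the Otof neurons. Mlip, at 5.06 and 55.0 CPM with saline and naloxone against 119 and 123 CPM, had an adjusted p of 0.0247. Pde7b, a phosphodiesterase, at 89.6 and 251 CPM against 1146 and 924 CPM, had 1.17e-05. Pde10a, at 245 and 549 CPM against 1888 and 1710 CPM, had 0.00250, and Kctd8, a subunit of GABA-B receptors, at 283 and 540 CPM against 566 and 476 CPM, had 0.00470.

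The other 5 genes fell relative to the Otof neurons. Grik3, a kainate receptor subunit, was at 34.3 CPM with saline and had no UMI with naloxone, against 65.5 and 79.9 CPM, with an adjusted p of 0.00161. Il1rapl2, at 555 and 92.2 CPM against 94.9 and 146 CPM, had 3.1e-18, and most of its saline UMIs in replicates 1 and 3 came from single nuclei. Rftn1, at 71.4 and 18.5 CPM against 12.3 and 19.1 CPM, had 0.0229. Zbtb16, a glucocorticoid target, at 54.9 and 37.7 CPM against 8.31 and 29.5 CPM, had 0.0434. Adcy8, an adenylyl cyclase, at 138 and 43.3 CPM against 19.4 and 32.7 CPM, had 0.00187.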

How the results depend on the processing

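The 93 named gene results of the class comparisons kept direction and call under every alternative run. With all 324 nuclei of the Bnc2 criterion (an alternative chosen after seeing the data), the counts rose to 2943 genes against the Otof, 2704 against the Drd3 and 1626 against the cholinergic neurons. Left-out libraries gave 1425 to 1658, 1434 to 1571 and 659 to 744 genes. For naloxone against saline, no filter gave 14 genes and left-out libraries 0 to 7. For the class by treatment term, DESeq2 gave 0 genes, the Bnc2 criterion 1, the main cluster alone (also chosen after seeing the data) 6 and left-out libraries 7 (without saline replicate 3) to 37 (without naloxone replicate 5). For female against male, no filter gave 6 genes, the Bnc2 criterion 1, the main cluster 1 and left-out libraries 0. The share difference went from -0.0118 (without naloxone replicate 6) to 0.106 percentage points, and that of the female share from -7.52 to -2.46 over left-out libraries, with -8.82 in the main cluster alone. The causes were not tested. With 10 to 18 nuclei per library, changes of 1 on the log2 scale were often below detection.

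No paired analysis was possible because the saline and naloxone libraries share no replicate number. Class comparisons had library as a block. With no replicate block they gave 1924, 1796 and 857 genes against the Otof, Drd3 and cholinergic neurons, the class by treatment term 0 and female against male 0.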
